A study of Mus musculus with 29 samples.

Results

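The alpha RGCs of the series comprised 2 cells classified as On Alpha and 7 cells classified as Off Sustained Alpha (4 cells) or Off Transient Alpha (3 cells), which made 9 of the 29 single RGCs. The groups were fixed by the label of each cell's light response, which uses no transcript. All 9 cells came from the retina of adult C57BL/6 mice (C57BL/6J in the methods of the study) and the labels name no transgene or drug treatment for any of them. Each cell was recorded in the intact retina under blue light stimuli, aspirated with a glass pipette, and profiled on its own array after 35 cycles of PCR. Cells are named here as ON alpha 12 and 13, OFF S alpha 14, 15, 16 and 18, and OFF T alpha 17, 19 and 20, after the numbers in the sample labels. No source names the animal of a cell. Since each group is described by a few single cells, the values below are given cell by cell, without tests, and none of the differences has a replicate check beyond the cells shown.

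Alpha RGCs are the largest ganglion cells of the retina, with thick axons that are rich in neurofilament. ON alpha cells fire when light in their receptive field gets brighter. OFF alpha cells fire when it gets dimmer, either throughout the dim period (sustained) or only at its start (transient). ON alpha cells of the mouse are counted among the intrinsically photosensitive RGCs (ipRGCs), because they make a low amount of the photopigment melanopsin, encoded by *Opn4*. Melanopsin signals through a Gq protein and phospholipase C, unlike the photopigments of rods and cones.

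Signals are the MAS5 intensities that the authors computed, which are linear and had the same trimmed mean on every array. A gene was called detected at a signal of 3000, or 2 times that mean. Of 18194 genes, 5428 were detected in at least 2 of the 9 alpha cells and are called background genes below. A difference is the median log2 signal of the 2 ON alpha cells minus that of the 7 OFF alpha cells, with log2 signals under 8.55 raised to that floor. The median background gene differed by 0.68, and 31.0% of background genes differed by at least 2 in favor of ON alpha cells against 9.4% in favor of OFF alpha cells. The median of 2 cells is their mean, so 1 high ON alpha cell raises it. A gene high in only 3 of 7 OFF alpha cells can leave the OFF median at the floor. *Cacna1f*, detected in 1 ON and 2 OFF alpha cells, differed by 3.74, and *Chrm1*, detected in 3 OFF alpha cells alone, by 0. For genes found in few cells, differences therefore lean toward ON alpha cells by construction, and these shares are not read as a group difference. Levels of different genes are not compared, because each probe set has its own response.

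The RNA of the 9 cells was that of ganglion cells, with at least 5 rod genes in 6 of them. *Sncg*, *Uchl1*, *Nefl* and *Tubb3*, all genes of RGCs or of neurons, were detected in 9 of 9 cells, and 6 to 12 of the 13 ganglion cell markers with a value were detected per cell. The lowest number belonged to OFF S alpha 18, which had signals of 262 for *Thy1* and 691 for *Slc17a6*, although both genes were detected in each of the other 8 alpha cells. The cells had 1672 to 4073 detected genes, 3716 and 3333 in the ON alpha cells and a median of 2981 in the OFF alpha cells. Rod genes, out of 10 with a value, numbered 0 in ON alpha 12 and 9 in ON alpha 13, and 0 to 9 in OFF alpha cells with a median of 6. *Gnat1*, the rod transducin, had a signal of 189 in ON alpha 12, 290734 in ON alpha 13, and at least 94834 in the 5 OFF alpha cells with 5 or more rod genes. Of 5 microglial markers at most 1 was detected in a cell, and none of 3 endothelial markers was. Of 10 Müller glia markers, 1 to 5 were detected per cell. *Clu*, *Dkk3* and *Vim* were detected in both ON alpha cells and in 7, 6 and 3 OFF alpha cells, and *Vim* was above every OFF alpha cell (14280 and 14990 against at most 10229). *Aqp4*, *Slc1a3* and *Apoe* were at most 253 in each alpha cell. Cone markers numbered 3 in ON alpha 13, 4 in OFF S alpha 14 and 18, 1 in OFF S alpha 15 and 0 in the other 5 cells, and ON bipolar markers 0 and 1 in ON and 0 to 3 in OFF alpha cells. The ON and OFF sides therefore each held cells with and without rod RNA, and the part of RNA of other cell types in the differences below was not tested.

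**Figure D1:**
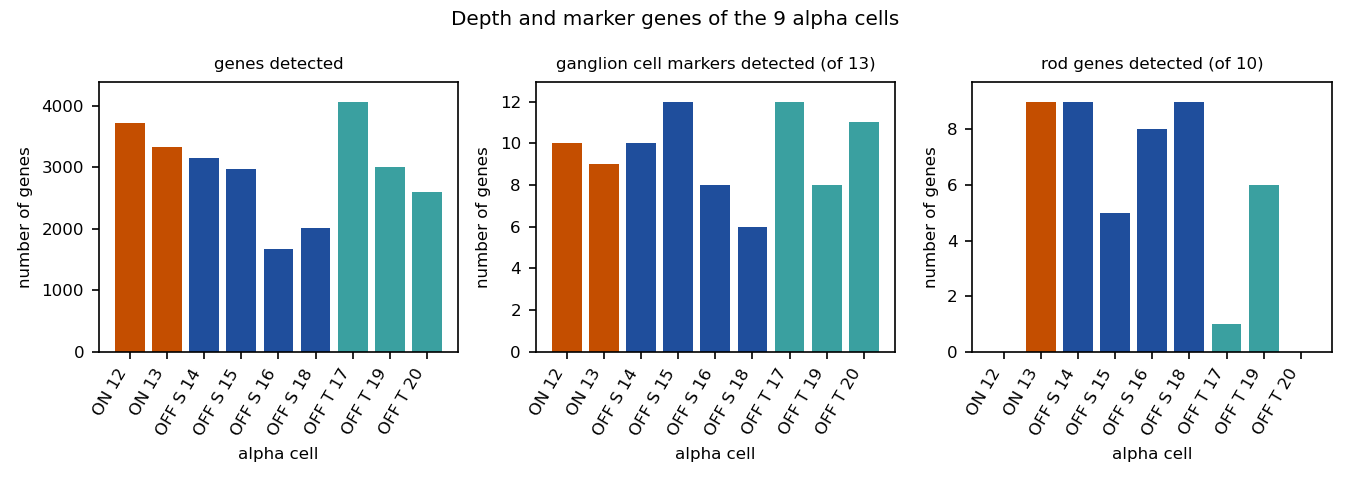
Number of detected genes, of detected ganglion cell markers (13 with a value) and of detected rod genes (10 with a value) in each of the 9 alpha cells, 1 bar a cell, with ON alpha cells in orange, OFF sustained in blue and OFF transient in teal. ON alpha 13 had 9 rod genes and ON alpha 12 had 0, and OFF S alpha 16 had the fewest detected genes (1672).

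The markers of the 2 polarities separated the cells with 1 exception. *Opn4* had signals of 50210 in ON alpha 12 and 76724 in ON alpha 13. In the OFF alpha cells it was 4.5, 121, 11.9 and 2.25 in the sustained cells 14, 15, 16 and 18, and 2.92, 10.6 and 33.8 in the transient cells 17, 19 and 20. No OFF alpha cell thus came near the threshold, and the difference was 7.37 on the log2 scale with OFF signals at the floor. *Opn4* was detected in 2 of 2 ON alpha cells and in 0 of 7 OFF alpha cells. A second probe set of *Opn4* read 34812 and 12799 in the ON alpha cells and at most 140 in the OFF alpha cells.

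*Kcnip2* encodes an accessory subunit of the A-type potassium channels and ran the other way. Its signals were 18.1 and 101 in ON alpha 12 and 13. In the sustained cells 14, 15, 16 and 18 it was 4.66, 35628, 163733 and 130395, and in the transient cells 17, 19 and 20 it was 50448, 160341 and 134489. It was detected in 6 of 7 OFF alpha cells (42.1% to 99.6%) and in 0 of 2 ON alpha cells (0% to 84.2%), and its difference of -8.44 was the largest in favor of OFF alpha cells among the genes named here. The exception was OFF S alpha 14, whose signal was lower than those of the ON alpha cells. That cell also had a *Kcng4* signal of 30.4, so neither transcript was detected in it, although it had *Nefh* at 98354 and *Pvalb* at 92551. A second *Kcnip2* probe set was detected in only 2 OFF alpha cells, OFF S alpha 18 and OFF T alpha 20, and in no ON alpha cell.

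*Kcng4*, which encodes a modifier subunit of voltage-gated potassium channels and is used to mark alpha RGCs of either polarity, did not follow polarity. It read 4818 and 28746 in the ON alpha cells. It was 30.4, 2644, 165 and 39849 in the sustained cells 14, 15, 16 and 18, and 34611, 12390 and 2231 in the transient cells 17, 19 and 20. It was detected in 2 of 2 ON alpha cells and in 3 of 7 OFF alpha cells. The ON signals lay inside the OFF range.

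Outside the alpha cells, *Opn4* was detected in 2 of 20 cells, On Direction Selective 1 (34985) and On Orientation Selective (horizontal) 10 (20203). *Kcnip2* was detected in 1 of 20, On-Off Direction Selective 6 (21142), and *Kcng4* in 3 of 20. *Opn4* was therefore found in 4 cells of the series, each with an ON label, and 2 of them were alpha cells.

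**Figure D2:**
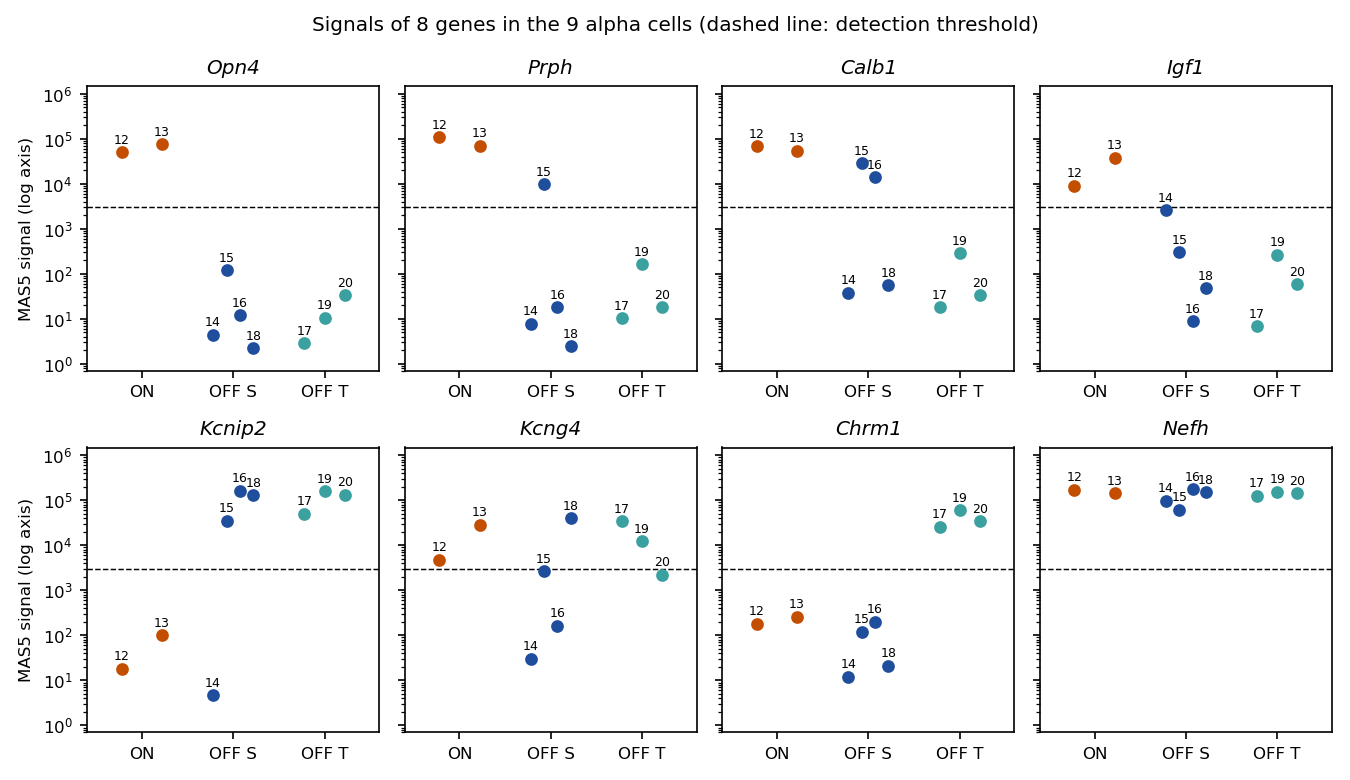
MAS5 signal (log axis) of 8 genes in the 2 ON, 4 OFF sustained (OFF S) and 3 OFF transient (OFF T) alpha cells, each point 1 cell with its number and the dashed line the detection threshold of 3000. *Opn4* was above the line in both ON cells alone, *Kcnip2* in 6 of 7 OFF cells alone, *Chrm1* in the 3 OFF T cells alone, and *Nefh* in 9 of 9 cells.

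The stretches of 250 bases before the RefSeq start of *Opn4*, *Prph* (see the intermediate filaments) and *Kcnip2* are shown because these genes had the largest differences in each direction. They lie on the GRCm38.p6 build at chr14:34600143-34600392 (minus strand), chr15:99054924-99055173 (plus strand) and chr19:45816064-45816313 (minus strand), and each reads 5′ to 3′ on the strand of its gene. Capitals mark the GC box GGGCGG and the TATA box TATAAA, searched on both strands.
Opn4: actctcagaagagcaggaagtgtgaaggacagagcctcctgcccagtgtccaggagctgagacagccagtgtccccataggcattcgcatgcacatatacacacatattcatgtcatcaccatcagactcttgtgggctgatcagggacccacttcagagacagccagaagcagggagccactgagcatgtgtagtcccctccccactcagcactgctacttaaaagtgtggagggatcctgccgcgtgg
Prph: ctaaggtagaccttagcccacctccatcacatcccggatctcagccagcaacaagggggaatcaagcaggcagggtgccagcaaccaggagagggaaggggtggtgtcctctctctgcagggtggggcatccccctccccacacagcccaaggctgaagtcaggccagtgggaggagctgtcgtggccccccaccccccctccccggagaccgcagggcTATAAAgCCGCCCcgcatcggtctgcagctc
Kcnip2: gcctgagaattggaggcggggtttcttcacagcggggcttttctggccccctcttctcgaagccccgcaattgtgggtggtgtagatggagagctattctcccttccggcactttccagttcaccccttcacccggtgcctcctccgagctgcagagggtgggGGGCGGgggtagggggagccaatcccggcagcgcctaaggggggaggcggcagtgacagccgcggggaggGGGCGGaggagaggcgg
The *Opn4* stretch held neither motif and 3 CpG dinucleotides. The *Prph* stretch held 1 TATA box and 1 GC box with 7 CpG, and the *Kcnip2* stretch held 2 GC boxes with 15 CpG. A GC box was in 61.5% of the 52 matched promoters of genes detected in ON but not in OFF alpha cells, in 50.0% of 10 on the opposite side, and in 61.0% of 4441 background genes with a promoter in the RefSeq table. A TATA box was in 0 of the 52, in 1 of the 10 and in 5.7% of the background, against 13.0% of all 27025 promoters. These matches describe the letters before 1 annotated start per gene, and no binding was measured.

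Across all genes, 63 genes were detected in both ON alpha cells and in no OFF alpha cell with a difference of at least 2, which is 1.16% of background genes. On the opposite side, 11 genes were detected in at least 6 of the 7 OFF alpha cells and in neither ON alpha cell, or 0.203%. A further rule used the order of the signals. Both ON alpha cells were detected and lay above every OFF alpha cell for 144 genes (2.65%), which included all 63, and both lay below every OFF alpha cell for 5 genes (0.0921%), 2 of which were among the 11. The rules do not ask the same of the 2 sides, since 2 cells must meet the ON rule and at least 6 must meet the OFF rule, so the counts are not compared with each other. In all, 158 genes (2.91%) met at least 1 of the 4 rules, and the called members of the gene lists below are read against this share. The counts depended on single cells and on depth. Without OFF T alpha 17 the 63 became 114, and without OFF S alpha 16 the 11 became 35 when 5 of the 6 OFF cells left were required. When the same number of highest genes was taken from each cell, the first rule gave 21 genes, of which 3 were among the 63, and the second gave 9, of which 1 was among the 11.

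Most genes of the ON alpha cells were shared with OFF alpha cells. Of 1999 genes detected in both ON alpha cells, 703 were in at least 6 OFF alpha cells and 1233 in 1 to 5, and 368 genes were in 9 of 9 alpha cells.

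**Figure D3:**
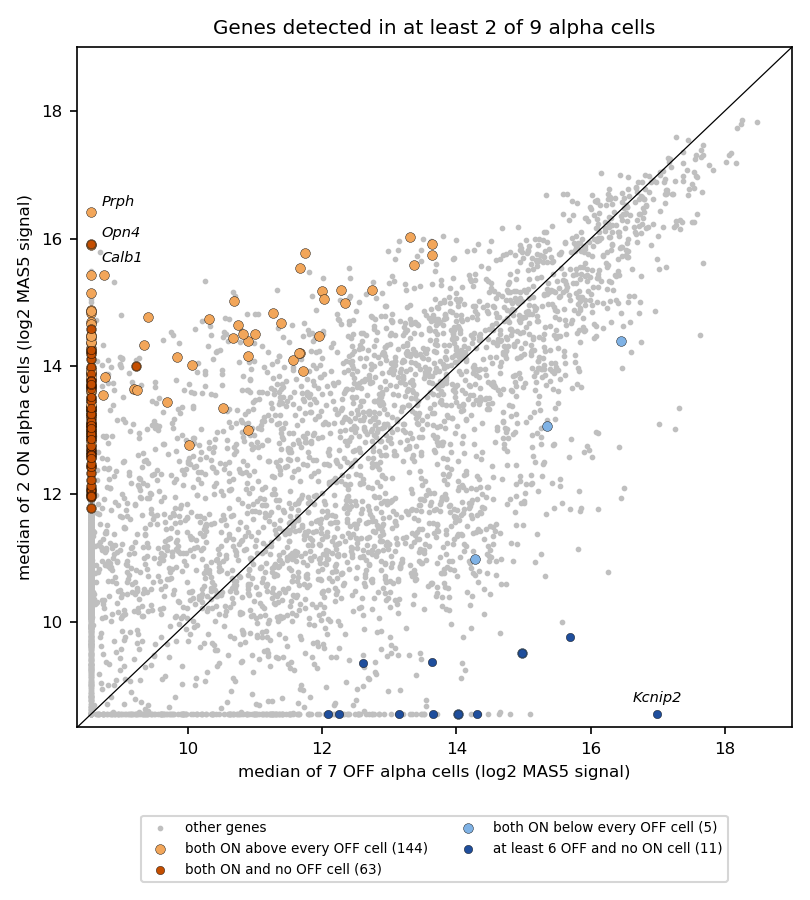
Median log2 MAS5 signal of the 2 ON alpha cells against that of the 7 OFF alpha cells for the 5428 background genes, 1 point a gene, with the genes of the 4 rules in color and the line of equality. The 63 genes of both ON and no OFF cells (dark orange, drawn over their points among the 144) sit at the left edge, where the OFF median is at or near the floor, and *Kcnip2* sits at the lower right.

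The 10 largest differences among the 63 were those of *Opn4*, *Snhg12*, *Plcd4*, *Cep250*, *Igf1*, *0610012G03Rik*, *Btbd9*, *Chst15*, *Scg2* and *6330403K07Rik*, from 7.37 down to 5.23. *Igf1*, which encodes insulin-like growth factor and is known as a gene of alpha RGCs, read 9092 and 38655 in ON alpha cells 12 and 13. In OFF alpha cells 14 to 20, in the order of their numbers, it was 2604, 308, 8.87, 6.91, 47.6, 268 and 59.3. The highest OFF signal, in OFF S alpha 14, was just under the threshold, and 1 other cell of the series, On Direction Selective 2, had *Igf1* (41264). Another *Igf1* probe set read 21631 in ON alpha 12 but 163 in ON alpha 13, with at most 162 in OFF alpha cells. The remaining *Igf1* probe sets were detected in no alpha cell. *Scg2*, which encodes the secretory granule protein secretogranin, read 6200 and 32234 against 1.04 to 2381, with 2 OFF S alpha cells (14 and 15) above 1500.

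*Snhg12*, a host gene of small nucleolar RNAs, had close signals in the ON alpha cells, 22647 and 26848, against 6.85 to 1485 in OFF alpha cells. *Plcd4*, a phospholipase C of the delta class, read 28879 and 13397 against 4.75 to 667. *Cep250*, a protein that links centrosomes, read 14610 and 24826 against 5.35 to 1238. The ON and OFF signals of these 3 genes were far apart, with no OFF signal above 1500. *Chst15*, an enzyme that adds sulfate to chondroitin chains, read 32106 and 7140 against 2.68 to 2281, and *Btbd9* 11817 and 22219 against 2.29 to 1252, though another probe set of *Btbd9* was detected in both ON and in 3 OFF alpha cells. The pair of uncharacterized cDNAs had OFF signals of at most 63.4 and 104, the lowest OFF maxima of the 10 genes. Among the rest of the 63, further examples were *Drd2* (4.95), the D2 dopamine receptor, *Ahr* (5.15), the aryl hydrocarbon receptor, *Hs3st4* (5.16), a heparan sulfate sulfotransferase, and *Nedd4l* (4.59), a ubiquitin ligase. The smallest difference, 3.23, was that of *Cul2*.

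Some genes that were above every OFF alpha cell had signal in part of the OFF alpha cells and still differed widely. *Prph*, which encodes the intermediate filament peripherin, read 107728 and 70437 in ON alpha cells, 9858 in OFF S alpha 15 and 2.46 to 162 in the other 6 OFF alpha cells, a difference of 7.86. Its other probe sets were detected in no alpha cell, with at most 508 in ON and 742 in OFF alpha cells. *Calb1*, the calcium-binding protein calbindin, read 67905 and 54576, was detected in OFF S alpha 15 and 16 (28659 and 14176), and was 18 to 294 in the other 5. The other *Calb1* probe sets were likewise detected in no alpha cell (at most 1153). The next genes were *Stk4*, a kinase of the Hippo pathway (6.88), *Rnf214* (6.69), *Ufsp1*, a protease of a ubiquitin-like protein (6.60), *Parm1* (6.34), *Tmem184c* (6.32), *Ccar1* (6.28) and *Ide*, the insulin-degrading enzyme (6.14). *Ufsp1* had nearly equal signals in the ON alpha cells, 36450 and 36386, and a highest OFF signal of 4522, and a second probe set was detected in the ON alpha cells alone (6887 and 10678 against at most 2723). *Stk4* likewise had a second probe set with 12351 and 21190 in ON and at most 2234 in OFF alpha cells. Other probe sets broke the order for *Rnf214*, where one read 93.7 and 51134 in ON alpha 12 and 13 and was detected in 3 OFF alpha cells (7393 to 24233). For *Ccar1* another probe set read 2.18 and 2074 in ON alpha cells and 5690 in OFF T alpha 20. Another probe set of *Ide* read 9.01 and 3498 in ON alpha 12 and 13 and 1936 in OFF T alpha 17. The second probe set of *Parm1* was detected in ON alpha 12 (34828) but read 77.2 in ON alpha 13.

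The OFF cells that shared these genes were not the same for each. Of the 144 genes, OFF T alpha 17, the cell with the most detected genes, had 50 and OFF S alpha 15 had 40, while OFF S alpha 16 and 18, the cells with the fewest, had 6 and 9. *Prph*, *Calb1* and *Parm1* were detected in OFF S alpha 15, and *Stk4*, *Rnf214*, *Ufsp1*, *Tmem184c* and *Ide* in OFF T alpha 17.

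On the OFF side, the 10 largest differences were those of *Kcnip2*, *Prkrip1*, *Txnl1*, *Psenen*, *Klhl17*, *Htr1b*, *Spata2*, *Jpt1*, *Znfx1* and *Ttc9*, from -8.44 to -3.53, and the remaining gene of the 11 was *Yipf2* (-3.25). *Klhl17*, an actin-binding protein of neurons, was the single gene of the 11 that was detected in 7 of 7 OFF alpha cells. It read 1421 and 319 in ON alpha 12 and 13, and 14000, 10320, 27711, 40225, 179961, 71959 and 32216 in OFF alpha cells 14 to 20. Its second probe set gave the same split, at most 156 in ON and at least 7649 in OFF alpha cells.

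*Psenen*, a subunit of gamma-secretase, read 30.2 and 34.0 in the ON alpha cells and 2857 to 61497 in the OFF alpha cells, all of which lay above both. It was nevertheless detected in 16 of the 20 other RGCs. *Htr1b*, a serotonin receptor that couples to inhibitory G proteins, read 51.1 and 3.72 in ON alpha cells. In OFF alpha cells 14 to 20 it was 24024, 5716, 64568, 12848, 1.45, 6601 and 20891. Of the OFF alpha cells, OFF S alpha 18 alone had no detected *Htr1b*. *Spata2*, an adaptor of a deubiquitinase, read 22.4 and 40.4 against 3253 to 70550 in 6 OFF alpha cells and 146 in OFF S alpha 18. *Znfx1*, an RNA helicase, read 2.13 and 7.20 against 3279 to 27406 in 6 OFF alpha cells and 4.67 in OFF S alpha 14.

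Some of these calls rested on the probe set that was read. *Txnl1*, a thioredoxin-like protein, was 2.48 and 5.45 in ON alpha cells at the probe set used, but another probe set was detected in both (23447 and 25872) and in 3 OFF alpha cells. *Jpt1* read 129 and 1157 in ON alpha cells, yet a second probe set gave 4282 and 4588 there and was detected in 4 OFF alpha cells. *Prkrip1* (2008 and 166 in ON alpha cells) read 492 in OFF T alpha 19, but another probe set read 12200 in that cell. *Ttc9* (15.5 and 1.71 in ON alpha cells) read 2.04 in OFF S alpha 16. The other genes that lay below every OFF alpha cell were *Sh3bgrl3* (-3.28), *Porcn* (-2.28), which attaches a lipid to Wnt proteins, and *Tom1l2* (-2.05), a protein of endosomal sorting. *Porcn* and *Tom1l2* were detected in both ON alpha cells, so they differed in level and not in presence.

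**Figure D4:**
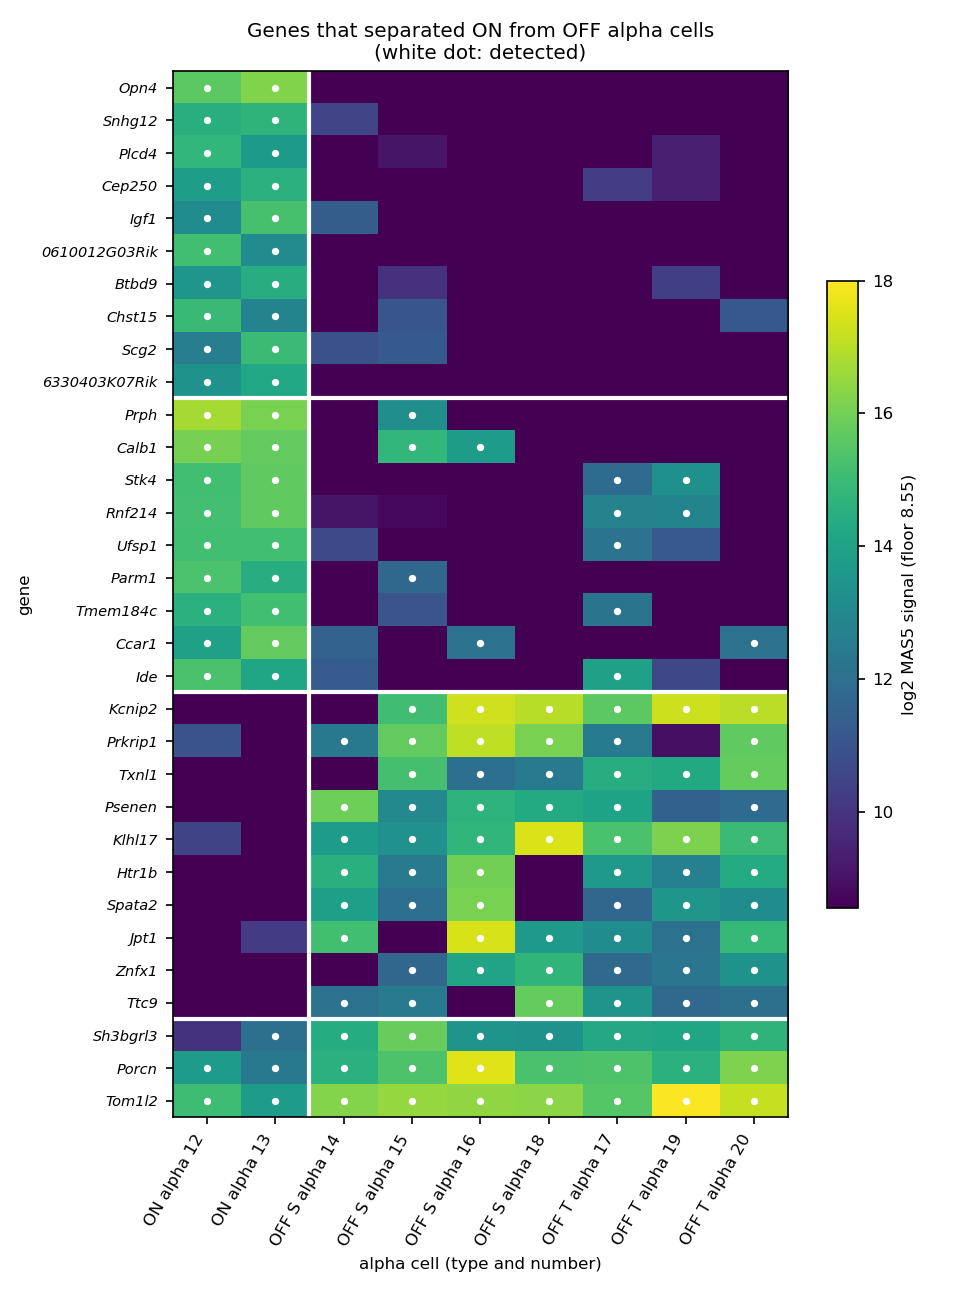
Log2 MAS5 signal (color, floor 8.55) of the 10 genes with the largest differences among those of ON alpha cells alone, 9 further genes above every OFF alpha cell, 10 genes of OFF alpha cells alone and 3 further genes below every OFF alpha cell, in each of the 9 alpha cells, with a white dot where the gene was detected. *Klhl17* is the one gene of its block with a dot in 7 of 7 OFF alpha cells, and OFF S alpha 15 and OFF T alpha 17 hold most OFF dots of the second block.

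The melanopsin and ipRGC list had the highest median difference of the 14 pathway lists. Of 28 members with a value, 14 were background genes, and their median difference was 3.77 against 0.68 for all background genes. Of the 14, 9 differed by at least 2 (64.3% against 31.0%) and none by -2 or less. *Opn4*, *Prph*, *S100b* and *Prkcq* lay above every OFF alpha cell, 4 of 14 where 2.65% of all background genes did so. *Opn4* is a marker chosen here. The study named *Prph*, *S100b* and *Prkcq*, with other members of the list, by their correlation with *Opn4* in the recorded cells, which include these 9. The list was also drawn up with earlier results of these cells known. It is therefore not independent evidence of its direction, which was partly set in advance, and nothing is read from these shares.

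*Prkcq*, a protein kinase C, read 5457 and 17467 in ON alpha cells and 15.7 to 204 in OFF alpha cells, and was detected in 1 other cell of the series, On Direction Selective 1 (79690). *S100b*, a calcium-binding protein, read 17240 and 25986 against 14 to 3699, with a single detection among OFF alpha cells in OFF T alpha 17. Its second probe set broke this order, with 21930 and 1756 in ON alpha 12 and 13 and 7160 in OFF T alpha 17. *Ctxn3*, which encodes cortexin, did not separate the polarities. It read 55861 and 58079 in ON alpha cells but also 78280 in OFF S alpha 14 and 51018 in OFF S alpha 15, and 47.3 to 940 in the other 5. *Irx6*, an Iroquois homeobox factor, read 26125 and 51239 in ON alpha cells, 41199 in OFF S alpha 15, 4077 in OFF S alpha 14, and 17.1 to 401 in the other 5. *Ctxn3* and *Irx6* were thus detected in the same 2 sustained cells and in no transient cell. *Irx2* was just above the threshold in both ON alpha cells (3374 and 5791) and in OFF T alpha 17 and 20 (3502 and 3655). *Eomes*, a T-box factor of ipRGCs, was detected in ON alpha 12 (4791) and not in ON alpha 13 (24.7), with at most 392 in OFF alpha cells.

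The signaling partners of melanopsin differed among themselves. *Plcb1*, a phospholipase C of the beta class, read 3398 and 14358 in ON alpha cells and was detected in 1 OFF alpha cell, OFF S alpha 15 (3449), a difference of 4.22. *Plcb4*, the phospholipase C of the melanopsin cascade, read 50435 and 23069 in ON alpha cells and was detected in 6 of 7 OFF alpha cells (1172 to 153005). *Arrb1*, a beta-arrestin, was likewise in both ON and in 6 OFF alpha cells, with a difference of 0.00. The channel genes *Trpc6* and *Trpc7*, whose products carry the melanopsin current in other ipRGCs, were at most 46.1 in ON alpha cells and at most 383 in OFF alpha cells. *Gnaq* was detected in ON alpha 13 (15989) but was 1.89 in ON alpha 12, and it was detected in OFF T alpha 17 and 19 (a difference of 2.71).

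Genes of alpha cells as a class moved both ways. Of 17 members with a value, 11 were background genes with a median difference of 0.00. In neither ON alpha cell were 9 of the 17, where this held for 13144 of all 18194 genes, so the 9 are not read as a lack. Of the 11, 3 differed by at least 2 and 2 by -2 or less (27.3% and 18.2%, against 31.0% and 9.4% of all background genes). Those that met a rule were *Opn4* and *Kcnip2*, which mark the polarities here by choice, and *Igf1*. *Nefh*, *Nefm*, *Nefl* and *Pvalb* were in both ON and in at least 6 OFF alpha cells. *Nefh*, the heavy neurofilament subunit, read 172399 and 144041 in ON and 62278 to 175659 in OFF alpha cells, a difference of 0.12. *Pvalb*, which encodes parvalbumin, read 140677 and 89269 in ON and 92551 to 345898 in 6 OFF alpha cells, but 1188 in OFF S alpha 18. *Chrm1*, a muscarinic acetylcholine receptor, was detected in neither ON alpha cell (184 and 263) and in none of the 4 sustained cells (at most 204). It read 26272, 61413 and 34679 in the 3 transient cells. It was detected in none of the other 20 RGCs, so it separated transient from all other alpha cells and not ON from OFF. *Pigo*, an enzyme of GPI anchor synthesis, was detected in both ON and in 5 OFF alpha cells, and *Pank1*, a pantothenate kinase, in 3 OFF alpha cells (3943 to 78990) with at most 89.7 in ON alpha cells. Another *Pank1* probe set was detected in ON alpha 12 (3939) and in no OFF alpha cell. *Scn4b* was at most 479 in each alpha cell.

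Of the neurofilament and axonal list, 14 of 15 members were background genes with a median of 0.02, and *Prph* alone met a rule. *Nefl* and *Nefm*, the light and medium subunits, had differences of 0.31 and -0.74. ON alpha cells therefore carried the subunits common to alpha cells and, beside them, peripherin. *Prph* was detected outside the alpha cells in 3 of 20 cells, On Orientation Selective (horizontal) 10 (114288), On Direction Selective 1 (106279) and Suppressed by Contrast 26 (10146). The first 2 of these were the non-alpha cells with *Opn4*.

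The list of peptides and calcium-binding proteins held 5 genes above every OFF alpha cell among 20 background genes (*Calb1*, *S100b*, *Igf1*, *Scg2* and *Hpcal4*), while 2.65% of all background genes did so, and its median was -0.02. Of the 20, 25% differed by at least 2 and 5% by -2 or less, against 31% and 9.4% of all background genes. This list was also drawn up with earlier results of these cells known, so it is not independent evidence. *Hpcal4*, a neuronal calcium sensor, read 10272 and 16005 in ON alpha cells and 8.51 to 743 in OFF alpha cells and was detected in 4 of the other 20 RGCs. Its relative *Vsnl1* was detected in 7 of 7 OFF alpha cells (7362 to 110953) but split the ON alpha cells, at 55191 and 371. *Calb1* was also a marker of horizontal cells in the lists used, and it was detected in 10 of the other 20 RGCs.

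Of 28 potassium and HCN channel genes in the background, *Kcnip2* and *Kcnk1* met a rule and the median was 0.50. This count of 2 is not read as a result beside the 2.91% of all background genes, since 1 of the 2 is a marker chosen here. *Kcnk1*, a leak channel, read 32064 and 97762 in ON alpha cells and 22.6 to 30730 in OFF alpha cells, so its OFF maximum in OFF S alpha 14 was close to the lower ON signal. Its second probe set broke the order, with 1320 and 3953 in ON alpha 12 and 13 and 22471 in OFF S alpha 14. *Kcnd2*, which encodes a pore subunit that the *Kcnip2* product binds, read 8840 and 18676 in ON alpha cells, 60847, 12385 and 22341 in the transient cells, and at most 2664 in the sustained cells. *Kcnip2* was thus detected in 3 sustained cells where *Kcnd2* was not, and *Kcnd2* in both ON alpha cells where *Kcnip2* was not. *Kcnd3*, of the same gene family as *Kcnd2*, was detected in sustained cells 15 and 16 (68203 and 6740) but not in 18 (12.1). It read 10761 and 30471 in the ON alpha cells. Other genes of the accessory family were present in ON alpha cells. *Kcnip1* read 22771 and 16803 there and was detected in 7 of 7 OFF alpha cells (-0.91), and *Kcnip4* read 10159 and 3065 and was detected in 4 OFF alpha cells (-0.38). *Kcnip3* was at most 28.4 in ON alpha cells and was detected in 4 OFF alpha cells (3956 to 50418). *Dpp6* and *Dpp10*, a further class of accessory subunits of these channels, were detected in both ON alpha cells and in 4 and 2 OFF alpha cells. *Kcnc1*, a channel of fast-spiking neurons, was detected in 9 of 9 alpha cells, with 36959 and 48492 in ON and 5821 to 165100 in OFF alpha cells.

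No member of the sodium channel, calcium channel, glutamate receptor, or GABA and glycine receptor lists met a rule. These lists held 4, 6, 7 and 6 background genes, too few for a share of 2.91% to be told from none. *Scn8a*, a main sodium channel of RGC axons, was detected in 9 of 9 alpha cells with a difference of -0.94, and the 3 largest differences of its list, among 4 background genes with a median of 1.17, were those of *Scn2b* (3.91), *Fgf12* (1.28) and *Fgf11* (1.07). Among 6 calcium channel genes (median 2.49), *Cacna1h*, a T-type channel, was at most 380 in ON alpha cells and in 3 sustained cells, and read 24839, 68949, 9146 and 19084 in OFF alpha cells 17 to 20. *Cacna1f* and *Cacna2d4*, whose products serve the ribbon synapses of photoreceptors, split the ON alpha cells, at 58.0 and 66789 for *Cacna1f* and at 88.6 and 82737 for *Cacna2d4*. Each was otherwise detected in 2 OFF alpha cells, *Cacna1f* in OFF S alpha 14 and 18 and *Cacna2d4* in OFF S alpha 14 and 16. All of these cells had 8 or 9 rod genes, and the part of rod RNA in these signals was not tested.

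The glutamate receptor list had 7 background genes with a median of 2.40. *Grin2d*, an NMDA receptor subunit, read 6767 and 34642 in ON alpha cells, 17849 in OFF S alpha 14 and 33.4 to 269 in the other 6 OFF alpha cells. *Gria3*, an AMPA receptor subunit, read 39998 and 2248 in the ON alpha cells and was detected in OFF alpha cells 14 and 17. *Grm8* was detected in ON alpha 13 (12724) and in OFF alpha cells 14 and 17. *Gria4* was in both ON and in 5 OFF alpha cells (-0.25). Among inhibitory receptors (6 background genes, median 0.27), *Glra1*, a glycine receptor subunit, was at most 90.6 in ON alpha cells and was detected in OFF S alpha 15 and the 3 transient cells (3639 to 100679). *Gabra3* was detected in ON alpha 13 (3470) and OFF T alpha 19 (10051), and *Gphn*, the scaffold of these receptors, in 3 OFF alpha cells.

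Transcription factors held 14 background genes with a median of -0.12, and *Tshz2* alone met a rule. This zinc finger factor read 9294 and 22850 in ON alpha cells, 3877 in OFF T alpha 17 and 3.89 to 868 in the other 6, and it was detected in 1 of the other 20 RGCs. The other *Tshz2* probe sets were detected in no alpha cell (at most 193). *Meis1*, a homeobox factor and a further example, was at most 690 in ON alpha cells and was detected in 5 OFF alpha cells (3515 to 14021). *Isl1* was just above the threshold in both ON alpha cells (3412 and 3153) and was in OFF S alpha 15 and OFF T alpha 17 (7609 and 4983).

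Guidance genes held 20 background genes with a median of 1.76, and the semaphorins *Sema5a* and *Sema5b* lay above every OFF alpha cell. *Sema5a* read 24356 and 20471 in ON alpha cells and 6610 in OFF S alpha 15, with at most 1459 in the other 6. The other *Sema5a* probe sets were detected in no alpha cell (at most 201). *Sema5b* read 20572 and 8477, with its highest OFF signal of 3004 in OFF T alpha 19, at the threshold, and its second probe set was detected in the ON alpha cells alone (8511 and 3137). *Neo1*, a receptor of netrin and repulsive guidance molecules, ran the other way as a further example, with at most 160 in ON alpha cells and 5 OFF alpha cells from 3444 to 49400. Of 31 adhesion genes (median 0.95), *Jam2*, the junction molecule that marks J-RGCs, was detected in ON alpha cells (9326 and 3297) and was at most 363 in OFF alpha cells, although its other 4 probe sets were detected in none of the 9 alpha cells. It was detected in 8 of the other 20 RGCs.

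Genes of synaptic release (43 background genes, median 0.00) and pumps and exchangers (21, median 1.0) had no gene that met a rule. These lists were too short for the 2.91% of all background genes to be told from none, so this is not read as a result. Their largest differences were *Stxbp5* (5.62), *Cplx2* (-3.70) and *Rims2* (3.63) for release and *Clcn5* (4.79), *Slc9a5* (-4.32) and *Slc4a8* (-3.93) for transport. *Stxbp5*, the SNARE regulator tomosyn, read 12066 and 28233 in ON alpha cells and 21585 in OFF S alpha 14, with at most 393 in the other 6. *Cplx2*, a complexin, read 10.6 and 3626 in ON alpha cells and 11550 to 58894 in 5 OFF alpha cells. *Slc9a5*, a sodium-proton exchanger, was at most 2421 in ON alpha cells and was detected in 4 OFF alpha cells (18970 to 32823).

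Some genes were shared by ON alpha cells with 1 OFF type. Both ON alpha cells and at least 3 of 4 sustained cells, but no transient cell, had 18 genes (0.332%). The same rule with 3 of 3 transient and no sustained cells gave 17 genes (0.313%). Examples of the first set were *Stx3*, a syntaxin, with 18678 and 89403 in ON, 45572, 83551 and 92738 in sustained cells 14, 16 and 18 and at most 450 in transient cells, and *Gprin1*, a protein of growing neurites. Examples of the second were *Kcnd2*, given above, *Mtss1*, an actin regulator, and *Trim9*, a ubiquitin ligase of neurons with 5851 and 6313 in ON, 8145 to 13423 in transient and at most 421 in sustained cells. A pair of genes of the ciliary BBSome complex fell on opposite sides, with *Bbs1* shared with sustained cells and *Bbs2* with transient cells. The OFF types also differed in rod RNA. Sustained cells 14, 15, 16 and 18 had 9, 5, 8 and 9 rod genes, and transient cells 17, 19 and 20 had 1, 6 and 0. The part of rod RNA in these sets, *Stx3* included, was not tested.

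Whole profiles were compared by pairs of cells, of which 1 pair held both ON alpha cells. The ON alpha cells shared 39.6% of the genes detected in either, and their log2 signals correlated across background genes at r = 0.30. The 14 pairs of 1 ON and 1 OFF alpha cell shared 26.3% to 49.4% (median 38.1%, r from 0.22 to 0.46). The 21 pairs of OFF alpha cells shared 24.97% to 46.3% (median 31.6%, r from 0.20 to 0.53). The ON pair thus lay inside the range of pairs of mixed polarity. It joined a cell with 0 rod genes to a cell with 9, and the 9 cells had 1672 to 4073 detected genes. The part of rod RNA and of depth in these values was not tested, and 1 pair cannot show whether profiles sort by polarity. Genes are not independent replicates, and pairs that hold the same cell are not independent of each other.

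In the 20 RGCs that are no alpha cells, the 63 genes of ON alpha cells were detected less broadly than background genes. They were about as frequent in cells labeled On alone as in the rest. They were detected in 19% of cases in the 8 cells with an ON label and in 20.1% in the other 12, where background genes reached 40.5% and 41.7%. The median gene of the 63 was in 4 of the 20 cells, and 4 genes (*Fbxo7*, *Zfp938*, *Ern1* and *Msantd2*, named after their values were seen) were in none. The rule itself required that these genes not be detected in the 7 OFF alpha cells, so nothing is read from the gap to the background. The 11 genes of OFF alpha cells were detected in 38.6% and 42.4% of cases. *Kcnip2* was in 1 and *Psenen* in 16 of the 20 cells, the lowest and highest of the 11.

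**Figure D5:**
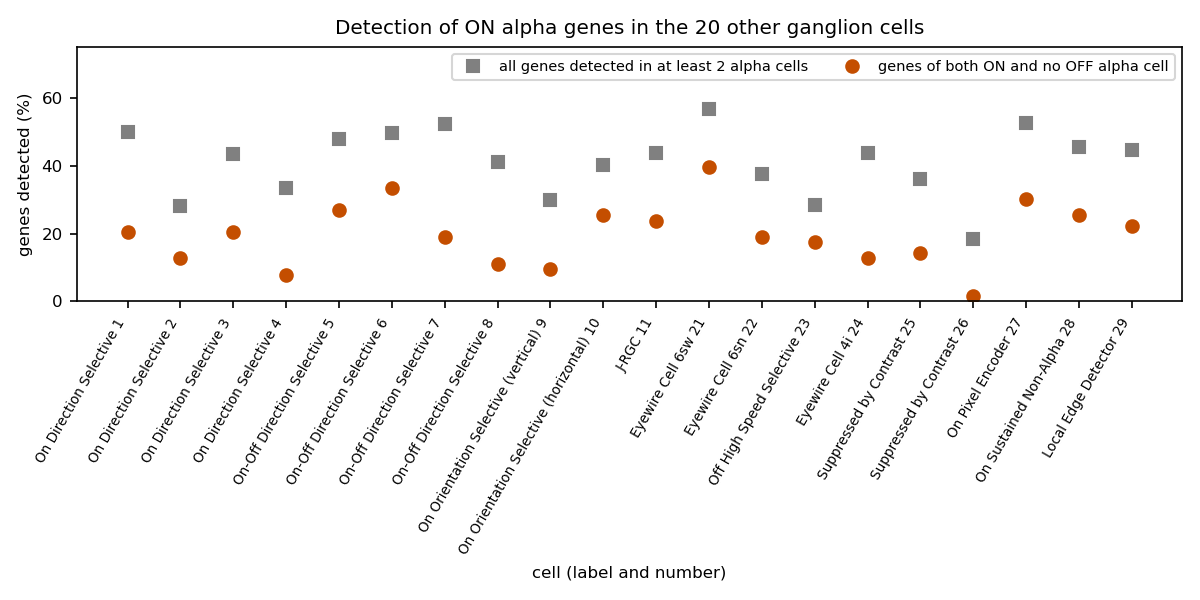
Percent of the 63 genes of ON alpha cells (orange circles) and of all 5428 background genes (grey squares) that were detected in each of the 20 other RGCs, 1 column a cell. The 63 genes were below the background in 20 of 20 cells, with 7.9% to 25.4% in the On Direction Selective and On Orientation Selective cells and the highest value, 39.7%, in Eyewire Cell 6sw 21.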

How the data were processed

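Single RGCs of adult C57BL/6 mouse retina (C57BL/6J in the methods of the study) were recorded, classified by their light responses, aspirated and lysed, and cDNA of each cell was amplified for 35 PCR cycles and hybridized to 1 Affymetrix Mouse Genome 430 2.0 array. The authors computed the deposited intensities with MAS5 (version not given in the sources consulted). The deposited values are linear signals with a 2% trimmed mean of 1500 on every array, which was checked on the file. MAS5 detection calls were not used.

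Probe sets were named from the platform's annotation. Of 45101 probe sets, 932 of several genes and 9211 without a gene were left out, and the 34958 others gave 18194 genes. Each gene was represented by 1 probe set, that of the greatest log2 signal averaged across the 29 cells. Detection was a signal of at least 3000, which is 2 times the trimmed mean, and log2 signals had a floor of 375 (8.55). ON minus OFF differences are differences of median log2 signals. Promoter sequences came from RefSeq (GRCm38.p6).

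Groups were taken from the response label of each sample. Each sample is 1 cell and the animals are not named, so no test, standard error or p-value was computed. Arrays have no read depth, so detected genes per cell are given in its place, and precision is limited by how few arrays there were. Named genes were the 3 marker genes, the 10 largest differences on each side, members of the gene lists that met a rule (otherwise the 3 largest differences of the list) and genes the paper names for alpha or *Opn4*-expressing cells. The 10 largest differences among genes above every OFF alpha cell, the genes below every OFF alpha cell, and genes called further examples were named after their values were seen. The cells, lists and rules were chosen with earlier results of these data known.

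Alternatives were thresholds of 1500 and 6000, floors of 3 and 1500 for the signals before log2, quantile normalization, the 1672 highest genes of each cell, other probe set rules, either OFF type alone, other numbers of OFF cells, no cells with at least 5 rod genes, and leaving out each alpha cell in turn. With 1 ON cell left, a gene needed detection in 1 cell rather than 2. The rules were tested on simulated data. Python 3.11.15, numpy 2.4.6, pandas 2.3.3, scipy 1.17.1 and matplotlib 3.10.9 were used.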

Additional observations from a re-analysis of the deposited data

Results flagged for a closer look

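Among the 7 OFF alpha cells, 1 cell stood apart from the other 6 for 13 of the genes named above, by the gap of the highest or lowest log2 signal to its neighbor relative to the whole range. The rule is meant to flag about 1 of 20 groups by chance, but a gene at the floor in 6 cells meets it with any signal above the floor. That rate therefore does not hold for these floored signals.

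OFF S alpha 14 was the cell with the lowest *Kcnip2* signal (4.65531), and the highest of *Grin2d* (17849), *Stxbp5* (21585.3), *Igf1* (2603.53) and *Snhg12* (1484.65). The first 2 of these high signals lay inside the range of the ON alpha cells. OFF S alpha 15 had the highest *Prph* (9858.27) and *Parm1* (3419.73). OFF S alpha 18 had the lowest *Pvalb* (1187.82).

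OFF T alpha 17 had the highest *Tshz2* (3877.38) and *Scn4b* (479.358), the latter far below the detection threshold. OFF T alpha 19 had the highest *Gabra3* (10050.6), *Hpcal4* (743.091) and *Eomes* (392.271), of which *Gabra3* alone was detected.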

How the results depend on the processing

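Each count is given in the order of genes in both ON and no OFF alpha cells, at least 6 OFF and no ON, above every OFF cell, and below every OFF cell (63, 11, 144 and 5). Where OFF cells were left out, the minimum of 6 OFF cells became all but 1 of those left. Leaving out 1 alpha cell at a time gave 69 to 421, 14 to 96, 166 to 914 and 9 to 57. The highest values came from leaving out ON alpha 12 (421, 96, 914 and 57) and ON alpha 13 (393, 41, 803 and 26), where 1 ON cell sufficed. Leaving out OFF T alpha 17 gave 114 genes of ON cells alone, and leaving out OFF S alpha 14, 15, 16 or 18 or OFF T alpha 20 gave 20, 21, 35, 31 and 22 of OFF cells alone. Any 1 OFF cell left out gave 9 to 20 below. When the 6 cells in which 5 or more rod genes were detected were dropped, ON alpha 12 against OFF T alpha 17 and 20 gave 875, 1170, 1455 and 657, which held 61 of the 63, all 11, 121 of the 144 and 3 of the 5. Sustained cells alone gave 201, 67, 351 and 30, and transient cells alone 175, 440, 337 and 291. The 1672 highest genes of each cell gave 21 for ON alone (3 of them among the 63), 47 above and 3 below. The mean of all probe sets gave 33, 5 and 61 for the first 3 counts, and the highest probe set 8 below. Quantile normalization gave 23 for OFF alone and 15 below, and a threshold of 1500 gave 25 for OFF alone. Allowing 1 OFF cell gave 198 for ON alone. Requiring 7 OFF cells left 1 (*Klhl17*), and requiring 5 gave 50. *Opn4*, *Cep250* and *Snhg12* were the genes of the 63 kept by each of 8 settings on thresholds, floors, scaling, depth and probe sets, as were *Porcn* and *Sh3bgrl3* of the 5, and none of the 11. For the differences of 69 named genes under 20 settings, 1216 values stayed within 1 SD of the cells, 162 moved further, and *Jpt1* (0.52 with the mean of all probe sets) and *Txnl1* (0.14 with the highest probe set) changed sign. The causes were not tested. No paired analysis was possible because the results come from no test.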
